A study of Mus musculus with 2 samples.

Results

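Of 20807 autosomal protein-coding promoters in the mouse genome, 5813 were CpG-poor, and 323 of those were open in the hippocampus of 14-day-old mice. A promoter was taken as the 1-kb window centred on the gene's annotated 5′ end in GENCODE M21. It was called CpG-poor when its CpG observed/expected ratio (the number of CpG dinucleotides times the length, divided by the product of the numbers of C and G) was under 0.25. It was called open when it overlapped a DNase I peak in both libraries. The 323 open CpG-poor promoters were therefore chosen by their measured peaks, and their openness is described here and not tested. The study measured DNase-seq, which maps chromatin that the nuclease DNase I can cut, in 2 libraries of hippocampus, replicates 1 and 2 of a single group. The mice were B6CASTF1/J females aged 14 days, the first-generation hybrid of C57BL/6J and CAST/EiJ, and each label names 3 females. The labels name no sorting of cells, and no other strain, sex, age or treatment was included, so there was no comparison between conditions. With 2 libraries, the smallest two-sided p that an exact permutation test over libraries can give is 0.5. Differences between classes of promoters are therefore given as values in each library, with no p.

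In mammals, most cytosines of CpG dinucleotides are methylated and are lost over evolution, while CpG islands escape this and mark the promoters of most widely expressed genes. CpG islands tend to be open in every tissue, and they are rich in sites for factors such as SP1 that bind GC boxes. Promoters without an island more often belong to genes used by particular cell types, and their opening depends on the factors that cell expresses. They carry a TATA box more often than island promoters do.

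The looser of the authors' peak lists, used throughout, held 112664 autosomal peaks in replicate 1 and 163048 in replicate 2. The authors' signal per peak has no stated scaling, so each peak was also ranked as a percentile among the autosomal peaks of its library. Defining genes of several cell types were examined at their annotated 5′ ends, and the lists gave a mixed picture. Open in both libraries were 3 of 4 excitatory neuron markers (Camk2a, Neurod6 and Nrgn, but not Slc17a7), 2 of 4 astrocyte markers (Gfap and Slc1a3), 1 of 4 oligodendrocyte markers (Mag) and 1 of 4 microglia markers (Tmem119). None of the 3 inhibitory neuron markers (Gad1, Gad2 and Slc32a1) or the 3 endothelial ones (Cldn5, Flt1 and Pecam1) was open. Of the lists from outside the nervous tissue, Alb and Apob of liver and Acta1 and Myh1 of muscle were not open, while 1 of 2 blood markers was. Foxj1 was open and Ttr was not among the 2 markers of choroid plexus and ependyma.

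The sequences below are the 200 bases before the 5′ end of 10 open CpG-poor promoters, written 5′ to 3′ on the strand of the gene, from the GRCm38.p6 (mm10) RefSeq genome. That is the C57BL/6J reference, and the CAST/EiJ alleles were not analysed here. They are shown because they carry footprints, short stretches protected from DNase I within an open region, and capitals mark the bases that lay in a footprint of both libraries. The first 3 belong to Gfap (chr11:102900913-102901112, minus strand), Lgi4 (chr7:31059142-31059341, plus strand) and Pcp4 (chr16:96467406-96467605, plus strand), and their capitals hold CCACNAG, on either strand, the first letters of the CTCF motif's core. CTCF is the zinc finger protein that anchors chromatin loops and insulator elements. In the promoter of Htr3a (chr9:48911100-48911299, minus strand) the same letters start in the shared footprint and run past its end.
Gfap: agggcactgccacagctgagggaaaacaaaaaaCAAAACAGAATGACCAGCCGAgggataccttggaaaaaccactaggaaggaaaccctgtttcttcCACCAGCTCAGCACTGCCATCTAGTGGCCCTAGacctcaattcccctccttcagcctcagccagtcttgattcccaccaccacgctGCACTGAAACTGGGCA
Lgi4: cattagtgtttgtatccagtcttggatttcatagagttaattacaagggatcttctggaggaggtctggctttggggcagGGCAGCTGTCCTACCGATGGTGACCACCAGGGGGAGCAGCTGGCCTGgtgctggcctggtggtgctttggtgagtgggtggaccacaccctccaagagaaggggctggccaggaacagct
Pcp4: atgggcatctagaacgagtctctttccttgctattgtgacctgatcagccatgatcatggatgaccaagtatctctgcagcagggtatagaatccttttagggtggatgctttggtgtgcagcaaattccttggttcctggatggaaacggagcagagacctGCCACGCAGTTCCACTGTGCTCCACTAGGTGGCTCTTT
Htr3a: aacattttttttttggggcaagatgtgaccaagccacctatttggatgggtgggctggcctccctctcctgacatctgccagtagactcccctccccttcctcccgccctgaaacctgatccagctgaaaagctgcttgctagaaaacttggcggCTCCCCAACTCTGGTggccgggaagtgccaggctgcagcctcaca

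In the next 4, the capitals hold the letters TTGGC, on either strand, the half-site of nuclear factor I proteins, which are active in astrocyte development. These are Cyp4f13 (chr17:32947403-32947602, minus strand), Pipox (chr11:77894097-77894296, minus strand), Aldoc (chr11:78322768-78322967, plus strand) and S100b (chr10:76253653-76253852, plus strand). In the promoter of Cd68 (chr11:69666154-69666353, minus strand) the shared footprint spans a GC box, GGGCGG read on the other strand. Adamtsl2 (chr2:27079179-27079378, plus strand), chosen after its values were seen, has a TATA box, TATAAA, starting 30 bases before the 5′ end, and a shared footprint that starts directly after it.
Cyp4f13: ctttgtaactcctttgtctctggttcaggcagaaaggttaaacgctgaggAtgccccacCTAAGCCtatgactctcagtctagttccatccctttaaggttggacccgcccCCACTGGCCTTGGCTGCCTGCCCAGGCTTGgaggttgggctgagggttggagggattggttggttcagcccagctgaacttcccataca
Pipox: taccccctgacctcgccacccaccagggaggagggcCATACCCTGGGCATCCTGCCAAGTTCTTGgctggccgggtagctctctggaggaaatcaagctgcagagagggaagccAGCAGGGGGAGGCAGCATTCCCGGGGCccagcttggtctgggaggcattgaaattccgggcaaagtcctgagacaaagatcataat
Aldoc: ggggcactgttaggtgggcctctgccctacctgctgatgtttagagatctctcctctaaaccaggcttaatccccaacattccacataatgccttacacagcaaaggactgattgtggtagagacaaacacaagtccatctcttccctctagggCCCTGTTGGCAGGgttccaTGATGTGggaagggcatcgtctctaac
S100b: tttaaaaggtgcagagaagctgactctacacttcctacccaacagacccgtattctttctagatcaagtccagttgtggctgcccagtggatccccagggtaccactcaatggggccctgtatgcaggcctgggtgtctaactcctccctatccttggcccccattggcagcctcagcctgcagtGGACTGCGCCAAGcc
Cd68: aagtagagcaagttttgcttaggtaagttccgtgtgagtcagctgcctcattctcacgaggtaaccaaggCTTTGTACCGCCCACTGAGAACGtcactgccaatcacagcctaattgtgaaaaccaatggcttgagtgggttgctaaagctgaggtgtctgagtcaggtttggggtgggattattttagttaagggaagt
Adamtsl2: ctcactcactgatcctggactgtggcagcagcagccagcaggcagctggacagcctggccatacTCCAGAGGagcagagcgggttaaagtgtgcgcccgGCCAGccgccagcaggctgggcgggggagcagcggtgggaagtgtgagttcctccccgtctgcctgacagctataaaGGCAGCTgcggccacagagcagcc

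Few CpG-poor promoters were open. The 323 were 5.56% of 5813 (exact 95% binomial interval 4.98 to 6.18%), against 52.1% of 5177 CpG-intermediate promoters (ratio 0.25 to under 0.6), 93.1% of 9817 CpG-rich promoters (0.6 or more) and 58.4% of all. Olfactory and vomeronasal receptor genes made up 1410 of the CpG-poor promoters and only 5 of the open ones. Without them the open share was 7.22% of 4403. The share also climbed within the CpG-poor class itself, from 0.802% of windows with a ratio under 0.05 to 2.04%, 4.24% and 7.12% in the next 3 steps of 0.05, and to 11.3% between 0.2 and 0.25. It went on climbing past the limit, to 21.3% between 0.25 and 0.3, so the limit cuts a gradient. Just inside it were Kcnip3, the calcium-binding channel partner also known as DREAM, and Hacd4, with ratios of 0.2496 and 0.24975. The open genes just outside were Cyp2j6 with 0.251 and Cryba1 with 0.252.

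**Figure D1:**
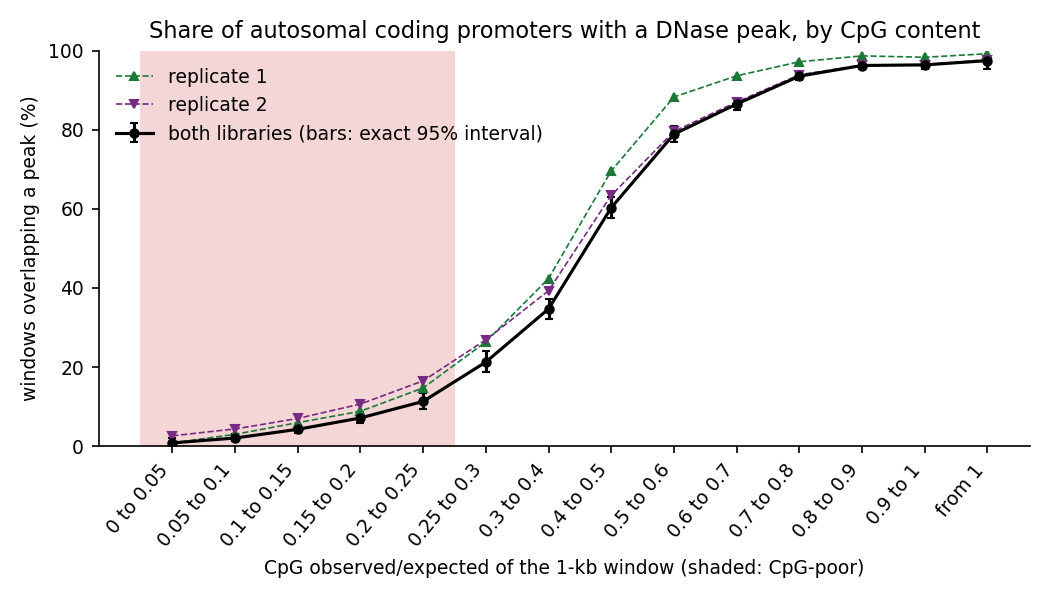
Share of autosomal coding promoters whose 1-kb window overlapped a DNase peak (vertical axis, percent), by CpG observed/expected ratio of the window (horizontal axis, 14 bins). Black points are windows open in both libraries with exact 95% binomial intervals, which cover counting error only, and triangles are single libraries. In the shaded CpG-poor range the share open in both libraries climbs from 0.802% to 11.3%, and replicate 2 lies above replicate 1, while replicate 1 lies above replicate 2 from a ratio of 0.3 on.

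The libraries differed in which class each called more often. A peak was present in replicate 1 at 7.28% of CpG-poor promoters and in replicate 2 at 8.79%. Of the promoters open in 1 library only, 100 CpG-poor ones were open in replicate 1 and 188 in replicate 2. This order was turned round in the other classes, with 422 in replicate 1 and 167 in replicate 2 among CpG-intermediate promoters and 380 in replicate 1 and 28 in replicate 2 among CpG-rich ones. CpG-poor promoters open in 1 library had weak peaks, with a median percentile of 31.1 in replicate 1 and 26.5 in replicate 2. The highest of them were Gpr146, with a signal of 1.74 in replicate 1, and Mr1, with 1.47 in replicate 2. In the authors' stricter lists, 181 of the 323 (56.0%) had a peak in both libraries, against 82.1% of open CpG-intermediate and 96.3% of open CpG-rich promoters.

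Where open, CpG-poor promoters had moderate peaks. Median signal over the 323 was 1.00 in replicate 1 and 0.785 in replicate 2, at the 57.7th and 71.1st percentiles of all autosomal peaks (mean 64.4 ± 9.48, SD, n = 2 libraries). Open CpG-intermediate promoters had median percentiles of 82.99 and 84.5, and open CpG-rich ones 94.9 and 96.2. Only 13 of the 323 reached the 90th percentile in both libraries, and 81 stayed under the 50th in both. Across the 323, signal in the libraries correlated with a Spearman rho of 0.803, and across open CpG-rich promoters with 0.907. These are descriptions across promoters, which share the libraries and are not replicates. The values of a promoter are those of its strongest peak in each library. These overlapped at 300 of the 323 (92.9%) and were separate peaks at the other 23, against 94.03% overlapping at open CpG-intermediate and 96.2% at open CpG-rich promoters. The 23 were weaker, with a median percentile of 27.6 in replicate 1 and 41.9 in replicate 2. The CpG ratio itself said little about strength among the open CpG-poor promoters (rho with the mean percentile 0.152).

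Less of the window also lay under peaks. A median of 200 bases of the window lay under peaks in replicate 1 and 220 in replicate 2, against 260 and 240 in open CpG-intermediate and 298 and 292 in open CpG-rich promoters. Of the 150 bases before the 5′ end, 53.1% in replicate 1 and 61.1% in replicate 2 were listed in the authors' FDR files, which hold bases with a false discovery rate under 0.05. That share was 77.6% and 75.4% in open CpG-intermediate and 96.7% and 94.4% in open CpG-rich promoters, and 0.629% and 1.25% in the CpG-poor promoters not called open. Peaks were less often placed on the annotated start. The 5′ end lay in a peak at 48.3% of open CpG-poor promoters in replicate 1 and 50.5% in replicate 2, against 66.8% and 67.2% of open CpG-intermediate and 81.3% and 78.5% of open CpG-rich ones. It lay in a peak of both libraries at 125 of the 323 and of neither at 129. The strongest peak was centred more than 500 bp from the 5′ end, at the edge of the window, in 25 of the 323 in replicate 1 and 33 in replicate 2.

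**Figure D2:**
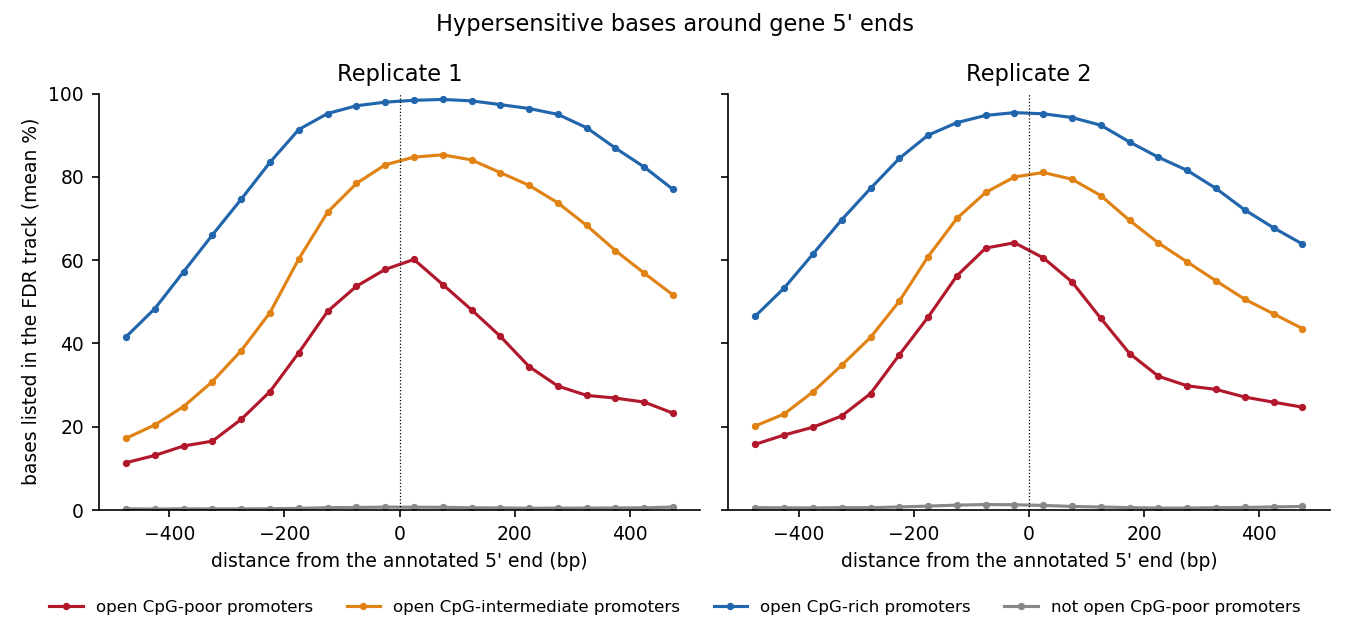
Mean share of bases listed in the FDR files (vertical axis, percent) in 50-bp steps around the annotated 5′ end (horizontal axis, base pairs, negative upstream), for 4 classes of promoters in replicate 1 (left) and replicate 2 (right). Open CpG-poor promoters peak at 60.2% just downstream of the 5′ end in replicate 1 and at 64.2% just upstream of it in replicate 2, below both other open classes at every step, and CpG-poor promoters not called open stay near 0.

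Few of these peaks were CpG-rich. The strongest peak was itself CpG-poor, with a median CpG ratio of 0.211 in replicate 1 and 0.204 in replicate 2, against 0.620 and 0.597 for open CpG-intermediate and 0.897 and 0.880 for open CpG-rich promoters. It reached 0.6 in 8 of the 323 in replicate 1, among them Sra1, Atp5j2 and Galnt17, and in 6 in replicate 2. No autosomal protein-coding gene with a CpG-rich promoter had its 5′ end within 1 kb of the strongest peak. Genes of other types were not examined for this. A start of another coding gene lay within 500 bp of that peak in 21 and 20 of the 323. The 5′ end of any other gene lay in the window of 19 (5.88%), against 14.1% of open CpG-intermediate and 29.6% of open CpG-rich promoters. In 7 cases a pair of the 323 shared their strongest peak in replicate 1, among them the divergent Tmem176a and Tmem176b, the interferon-inducible Ifi203 and Mndal, and Il18 with Bco2. A separate CpG-rich coding start lay more than 1 kb away for 27 of the 323 (8.36%), Ptms among them. The share was 7.49% in open CpG-intermediate, 4.55% in open CpG-rich, 6.03% in not-open CpG-poor and 6.30% in all promoters.

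The strongest of the 323 was Cyp4f13, of the cytochrome P450 family that hydroxylates fatty acids and eicosanoids, with a peak of 11.05 in replicate 1 and 4.57 in replicate 2. Pcp4, a calmodulin-binding peptide that marks CA2 pyramidal cells, followed with 10.2 and 3.12. Btbd17 had 8.66 and 6.55, and was the strongest in replicate 2. Ptms, the acidic nuclear protein parathymosin, had 6.94 and 5.15, in separate peaks, one centred 98 bp upstream of the 5′ end in replicate 1 and one 312 bp downstream in replicate 2. Lgi4, a secreted ligand of the ADAM22 receptor, had 7.01 and 2.25. All 5 lay at the 93.2nd percentile or above in both libraries. The next 5 were Sra1, the steroid receptor RNA activator, with 6.40 and 2.97, Hsd3b7, a bile acid synthesis enzyme, with 6.53 and 2.23, the secretoglobin Scgb1c1 with 6.03 and 2.34, the ATP synthase subunit Atp5j2 with 5.60 and 3.00, and Pipox, the peroxisomal pipecolic acid oxidase, with 5.15 and 2.54. The strongest peaks of Sra1, Scgb1c1 and Atp5j2 were centred more than 500 bp from the 5′ end, with no listed bases in the 150 before it, and that of Btbd17 was centred 594 bp downstream of its 5′ end in replicate 1. The strongest peaks of Sra1 and Atp5j2 were themselves CpG-rich, with CpG ratios of 0.779 and 0.690 in replicate 1. The window of Scgb1c1 also holds the start of C330022C24Rik.

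Promoters on some lists of brain cell types were open more often than CpG-poor promoters at large, and the lists differed. The lists were chosen with earlier results of these data known, so the shares are descriptions and were not tested. Lists of neuron, astrocyte, oligodendrocyte and microglia markers together held 46 CpG-poor promoters, of which 21 were open (45.7%, exact 95% interval 30.9 to 61.0%). The share ran from 1 of 6 on the inhibitory neuron list to 9 of 9 on the astrocyte list. None was open among 9 of vessels and 7 of ependyma and choroid plexus, and with these lists included the count was 21 of 62 (33.9%). Lists for liver, muscle, blood, epithelia and germline held 84, of which 2 were open (2.38%, 0.290 to 8.34%), beside 5.56% over all CpG-poor promoters. In the stricter lists these counts were 11 and 0. In a whole tissue, a weak peak in all cells and a strong one in a few cannot be told apart.

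Every CpG-poor promoter on the astrocyte list was open, 9 of 9. Gfap, the intermediate filament of astrocytes, had a peak of signal 3.75 in replicate 1 and 1.97 in replicate 2. Aldoc, the brain aldolase, had 2.29 and 1.64. The calcium-binding S100b had 1.22 and 0.877, angiotensinogen (Agt) 1.17 and 0.894, and the acyl-CoA synthetase Acsbg1 1.03 and 0.836. All 5 thus had the larger signal value in replicate 1, but the higher percentile in replicate 2. Gfap lay at the 87.8th percentile in replicate 1 and the 91.7th in replicate 2, and Acsbg1 at the 58.9th and 73.3rd. Mlc1, a membrane protein of astrocyte endfeet, had 1.03 in replicate 1 and 1.54 in replicate 2. Itih3 had 0.897 and 0.946, and the thyroxine transporter Slco1c1 had 0.631 and 0.963, so these 3 had the larger signal value in replicate 2. In the stricter lists 6 of the 9 were kept, and S100b and Agt were among those that were not. Aldoc had 10 footprints in replicate 1 and 8 in replicate 2, the most of any of the 323 over both libraries, and Gfap had 3 in each, all 3 of those in replicate 1 shared.

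On the list of excitatory and pan-neuronal genes, 3 of 5 were open. Gria1, the AMPA receptor subunit GluA1, had 3.23 in replicate 1 and 1.44 in replicate 2. Neurod6, a transcription factor of pyramidal neurons, had 2.37 and 2.80. Tdo2, the tryptophan dioxygenase that marks mature granule cells of the dentate gyrus, had 0.494 and 1.04, and it also stands on the liver list. Rbfox3, which encodes NeuN, had a peak in replicate 1 only, and Spink8 in neither. Among 6 CpG-poor promoters of inhibitory neurons and neuropeptides, 1 was open, that of the serotonin receptor Htr3a, a marker of an interneuron class, with 2.14 in replicate 1 and 0.883 in replicate 2.

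The oligodendrocyte list had 3 of 8 open. Gpr17, a receptor of committed precursors, had 1.41 in replicate 1 and 0.877 in replicate 2, in separate peaks centred 595 and 205 bp upstream of the 5′ end. The prostaglandin D synthase Ptgds had 1.08 and 0.490, and the myelin-associated glycoprotein Mag had 0.403 and 0.196. Mog, Sox10, Bcas1 and Hapln2 had a peak in neither library. The microglia list had 5 of 18 open. The lysosomal Cd68 had 1.32 and 1.62, and was the only 1 of the 5 kept in the stricter lists. Laptm5 had 0.859 and 0.398, Siglech 0.684 and 0.283, Trem2, the lipid-sensing receptor, 0.562 and 0.283, and Csf3r 0.562 and 0.248. These 4 were weak in both libraries, at or below the 51.4th percentile. A further 6 microglial promoters, among them Tyrobp and the lineage factor Spi1 in replicate 1 and C1qc and Selplg in replicate 2, had a peak in 1 library, and 7, including Csf1r, Cx3cr1 and Aif1, in neither at the annotated 5′ end. No CpG-poor promoter was open among 14 of striated muscle, 15 of epithelia and skin, 9 of the germline and 1 of immediate early genes. Among 27 of blood lineages 1 was open, the antimicrobial peptide gene Camp, with 0.448 in replicate 1 and 0.288 in replicate 2.

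**Figure D3:**
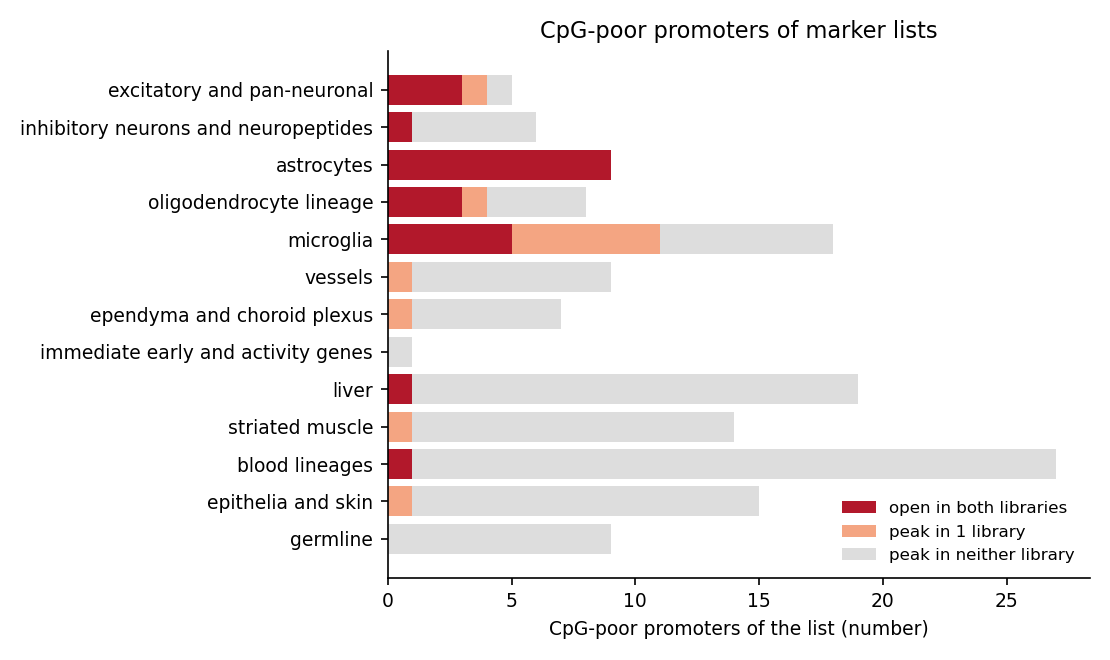
Number of CpG-poor promoters in each of 13 marker lists (horizontal axis), split by whether a peak was called in both libraries, in 1 or in neither. All 9 of the astrocyte list are open in both libraries, 5 of 18 of the microglia list are, with 6 more in 1 library, and the lists of vessels, ependyma, muscle, epithelia and germline have none open in both.

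**Figure D4:**
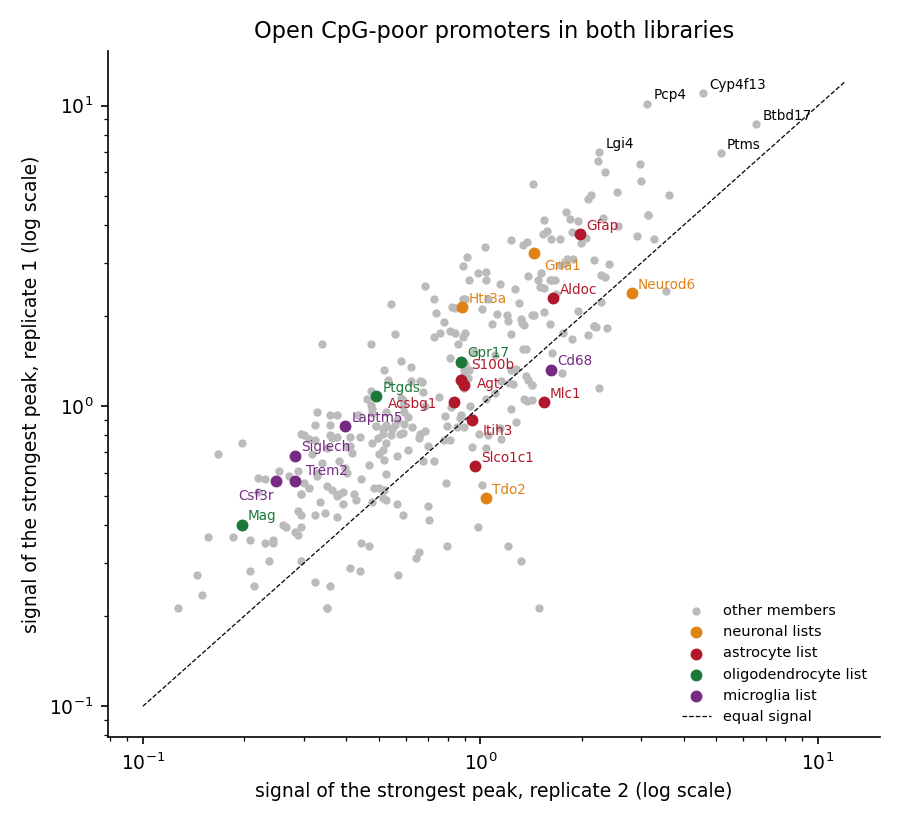
Signal of the strongest peak of each of the 323 open CpG-poor promoters in replicate 1 (vertical axis) against replicate 2 (horizontal axis), both log scales in the authors' units, with the reported genes of the brain cell lists coloured and named, and the 5 strongest promoters named in black. Most points lie above the dashed line of equal signal, 255 of 323, and Neurod6, Cd68, Mlc1, Itih3, Slco1c1 and Tdo2 lie below it.

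Gene families are counted here beside the 5.56% open over all CpG-poor promoters. Among olfactory receptors 4 of 1089 were open, the strongest being Olfr536 with 1.51 in replicate 1 and 0.958 in replicate 2, and 1 of 321 vomeronasal receptors, Vmn2r1, with 0.251 and 0.213. Cytochrome P450 genes had 5 of 72, and all 5 were of the Cyp4f subfamily, where 5 of 7 were open, against 0 of the other 65. After Cyp4f13, Cyp4f16 had 4.15 and 1.55, Cyp4f15 1.32 and 1.23, Cyp4f14 0.714 and 0.513, and Cyp4f40 0.395 and 0.294. These genes are near copies of each other in a cluster on chromosome 17, and how the authors treated reads that map to several copies is not given. Class II major histocompatibility genes gave the 3 open of 19 in that family. H2-Ab1 had 5.05 in replicate 1 and 2.12 in replicate 2, H2-Eb1 2.42 and 3.54, and H2-Aa 1.28 and 1.75. Chemokines had 3 of 19 open, the neighbours Ccl2, with 1.73 and 1.23, Ccl7, with 0.661 and 0.519, and Ccl11, with 0.479 and 0.479. Potassium channels and their partners had 4 of 16, led by Kcnip3 with 2.64 and 1.66. Receptors for GABA and glutamate had 2 of 7, Gria1 among them. Serotonin, dopamine and adrenergic receptors had 2 of 3, Htr3a and Htr2b, the second with 0.767 and 0.779. Solute carriers, with 3 of 69 (4.35%), and keratins with their associated proteins, with 4 of 61 (6.56%), were near the share over all CpG-poor promoters, and so were the cytochrome P450 genes as a whole (6.94%).

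The open CpG-poor promoters were richer in GC than those not called open, with a median of 51.0% against 44.1%, and poorer than open CpG-intermediate (54.5%) and CpG-rich (61.2%) ones. Their windows held a median of 11 CpG, with a range from 0 to 23. The lowest ratios belonged to 4931408C20Rik, with no CpG in the window and 0.479 in replicate 1 and 0.335 in replicate 2, in separate peaks, to Olfr536, Gm7137, the sperm tail gene Tekt4, with 1.15 and 0.894, and Mndal, with 1.17 and 1.42. A TATA box in the 50 bases before the 5′ end was found in 12 of the 323 (3.72%, exact 95% interval 1.93 to 6.40%), against 1.56% of open CpG-intermediate, 1.07% of open CpG-rich, 7.49% of not-open CpG-poor and 3.31% of all promoters. In 10 of the 12 it started 25 to 35 bases before the 5′ end, among them Adamtsl2, an extracellular matrix protein, with 2.80 in replicate 1 and 1.04 in replicate 2, the crystallin Crybb1, with 2.01 and 1.44, Agt, Ccl7 and Laptm5.

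In the 250 bases before the 5′ end, searched on both strands, the GC box GGGCGG occurred in 13.6% of open CpG-poor promoters, against 38.5% of open CpG-intermediate, 64.6% of open CpG-rich, 5.15% of not-open CpG-poor and 39.6% of all. The E-box CANNTG, bound by basic helix-loop-helix factors such as Neurod6, occurred in 77.1%, against 66.8%, 53.7%, 75.03% and 63.7% in the same order. Its form CAGCTG, which CANNTG includes, occurred in 21.7%, against 14.2%, 10.1%, 12.8% and 12.1%. GC content differed between these groups, with a median of 51.0% in open and 44.1% in not-open CpG-poor promoters. Its part in the motif shares was not tested. The other motifs are set beside the not-open CpG-poor promoters and beside all promoters. The CCAAT box was in 31.3%, against 36.4% and 35.5%, and the ETS core GGAAGT in 22.6%, against 19.1% and 19.98%. The AP-1 site TGANTCA was in 9.29%, against 10.6% and 5.998%. The cyclic AMP response half-site TGACGT, which contains a CpG, was in 2.17%, against 2.22% and 7.13%. AACAAT, bound by SOX factors, was in 8.67%, against 16.8% and 8.81%, and the nuclear receptor half-site TGACCT in 15.5%, against 19.3% and 12.96%. Of motifs added after the data were seen, TTGGC was in 47.7%, against 40.1% and 43.2%, and GTTGCC, a piece of the RFX motif, in 9.91%, against 9.34% and 9.88%. The E-box form CAGATG was in 20.4%, against 19.5% and 13.2%, so it set the open CpG-poor promoters apart from all promoters and hardly from those not open.

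Footprints were sparser in open CpG-poor promoters, with 833 in replicate 1 and 794 in replicate 2. Per 100 bases under peaks that was 1.11 and 1.02, against 1.43 and 1.22 in open CpG-intermediate and 1.72 and 1.52 in open CpG-rich promoters. Signal was lower in the same order, and its part in the count was not tested. Of the 323, 13.003% had no footprint in replicate 1 and 13.3% in replicate 2, and 183 (56.7%) had one that overlapped between libraries. Besides Aldoc and Ptms (9 in replicate 1 and 7 in replicate 2), the most footprints were in the aggrecanase gene Adamts4 (7 and 7), the aldehyde dehydrogenase gene Aldh3b1 (7 and 6) and the muscarinic receptor gene Chrm1 (2 and 12).

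Some motifs under these footprints differed in share from those of CpG-rich promoters, and several were shared with the other classes. Each footprint was searched with 5 bp added at either end, beside 2 flanking stretches as long as itself, 100 bp to its left and right. In all 14 motifs were searched, 9 from the list used for the promoters and 5 added after results of these data had been seen. CCACNAG, the start of the CTCF core, is one of the added motifs and a shortened form, written after a longer form of the core had been searched in these footprints. It was in 3.36% of footprints of open CpG-poor promoters in replicate 1 and 3.40% in replicate 2, against 1.62% and 1.39% of their flanks. In open CpG-rich promoters it was in 0.911% and 0.983% of footprints, against 1.01% and 1.05% of flanks. The E-box CAGCTG was in 3.48% and 3.78% of footprints of open CpG-poor promoters, against 1.80% and 1.51% of flanks, and in 0.793% and 0.913% of footprints of open CpG-rich promoters, against 0.987% and 0.982%. For all E-boxes, CANNTG, the shares at open CpG-poor promoters were 12.2% and 14.4%, against 9.06% and 10.6% of flanks. TTGGC was in 9.36% and 12.7%, against 5.82% and 5.35% of flanks. In open CpG-rich promoters TTGGC was in 5.72% and 6.71% of footprints, against 4.63% and 4.96%. The GC box was in 2.76% and 2.64% at open CpG-poor promoters, against 1.08% and 1.01%. In open CpG-rich promoters it was in 18.6% and 19.1% of footprints, against 9.82% and 9.62%. At open CpG-poor promoters these 5 were among 10 of the 14 that were commoner in footprints than in flanks in both libraries. TATAAA and TGANTCA were commoner in flanks in both, and for GGAAGT and TGACCT the libraries differed. At open CpG-rich promoters 7 of the 14 were commoner in footprints in both libraries, and CCACNAG and both E-box forms were not. At open CpG-intermediate promoters 8 of the 14 were, CCACNAG and CAGCTG among them, and for CANNTG the libraries differed. There CCACNAG was in 1.44% and 1.64% of footprints, against 1.25% and 1.17% of flanks. CAGCTG was in 1.54% and 1.40% of footprints there, against 1.25% and 1.15% of flanks. The motifs described in full were chosen after their values were seen, so their shares are descriptions, with no test.

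**Figure D5:**
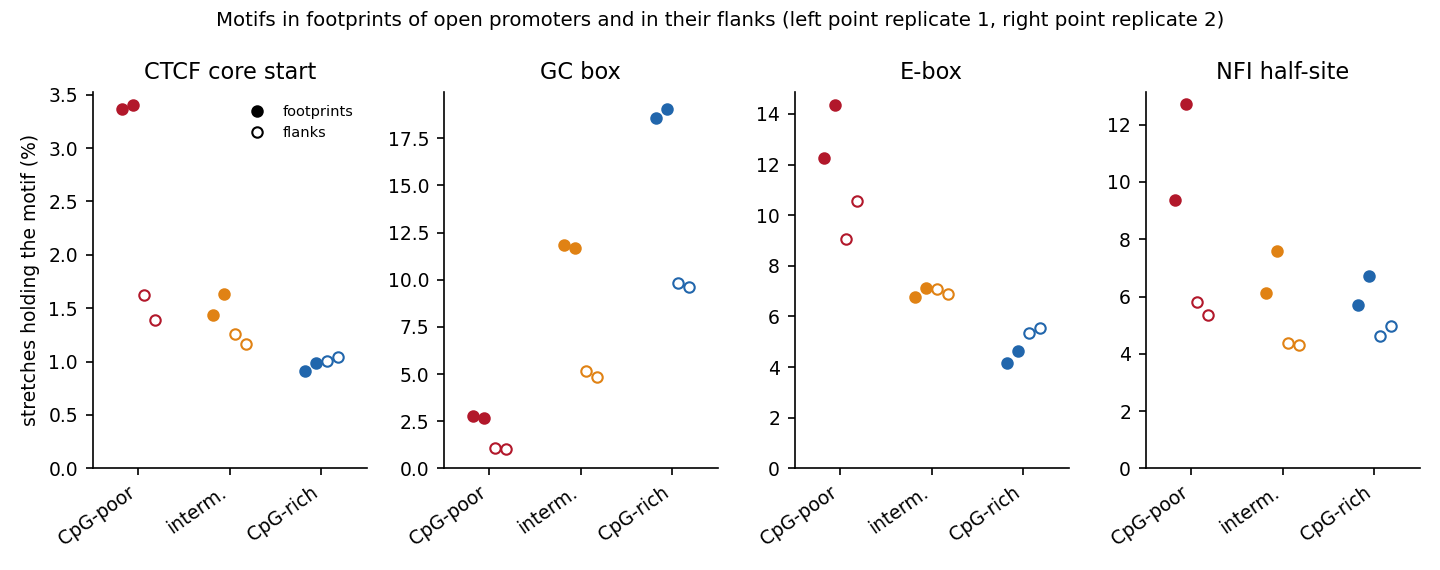
Share of footprints (filled) and of flanking stretches (open) that hold a motif (vertical axis, percent, scaled separately in each panel), in open CpG-poor, CpG-intermediate and CpG-rich promoters, with replicate 1 left of replicate 2 in each pair. The CTCF core start is in 3.36% and 3.40% of CpG-poor footprints and in 0.911% and 0.983% of CpG-rich ones, and the GC box shows the opposite order, with 2.76% and 2.64% against 18.6% and 19.1%.

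The same letters also stood at the centre of strong peaks. In the 150 bp around the centre of the strongest peak, CCACNAG was found in 50 of the 323 in replicate 1 (15.5%, exact 95% interval 11.7 to 19.9%) and 49 in replicate 2 (15.2%, 11.4 to 19.6%), against 10.5% and 11.01% of open CpG-intermediate and 7.51% and 8.14% of open CpG-rich promoters. Among the open CpG-poor promoters it was in 9.52% of those under the 50th percentile in replicate 1 and 10.5% in replicate 2. From the 90th on, it was in 6 of 14 (42.9%, 17.7 to 71.1%) and 13 of 46 (28.3%, 15.99 to 43.5%). CANNTG and TTGGC were also searched at peak centres. CANNTG was in 63.5% and 64.4% of open CpG-poor promoters, against 31.5% and 32.6% of open CpG-rich ones. TTGGC was in 43.3% and 47.99%, against 33.3% and 34.8%. Among open CpG-poor promoters CANNTG went from 65.9% and 65.3% under the 50th percentile to 50% and 54.3% from the 90th on. TTGGC went from 42.9% and 49.5% to 42.9% and 54.3%. CCACNAG was at the centre in both libraries in 41 of the 323, and in 20 of these it overlapped a footprint of both. Pcp4, Lgi4 and Hsd3b7, 3 of the 10 strongest, were among the 20, and so was Gfap. Shared peaks over 1 kb from any transcript start, 53668 in replicate 1 and 53823 in replicate 2, had these letters at their centre in 16.7% and 16.6%. In the 250 bases before the 5′ end the letters were less uneven, in 16.7% of open CpG-poor, 14.8% of open CpG-intermediate, 13.1% of open CpG-rich, 11.8% of not-open CpG-poor and 12.9% of all promoters.

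In other measures too, open CpG-poor promoters stood closer to these distal peaks than to CpG-rich promoters. Distal peaks had a median percentile of 52.8 in replicate 1 and 67.7 in replicate 2, a median CpG ratio of 0.260 and 0.255, and 1.16 and 1.10 footprints per 100 bases. The corresponding values of open CpG-poor promoters, given above, were 57.7 and 71.1, 0.211 and 0.204, and 1.11 and 1.02. Closeness in the CpG ratio largely follows from the rule, which chose these promoters for CpG-poor windows. The percentiles are unlike measures, since a promoter gives the strongest peak of its window and every shared distal peak counts. Distal peaks are also among the peaks that set the ranking. The median ratio of signal in replicate 1 to replicate 2 was 1.53 over the 323 (interval of the median from order statistics 1.42 to 1.62), against 1.38 over distal peaks of replicate 1 and 1.40 over those of replicate 2, 2.11 over open CpG-intermediate and 2.52 over open CpG-rich promoters. Since the scaling of the signal is not stated, these ratios are read only against each other. The interval treats promoters as independent, although they share the same libraries, and it does not cover variation between libraries. At matched strength, with a mean percentile of 60 to under 80, the medians were 1.35, 2.26 and 3.09 in open CpG-poor, CpG-intermediate and CpG-rich promoters. From the 90th percentile on, they were 2.03 over 21 open CpG-poor promoters, 2.02 and 2.40. GC content moved with the ratio. Within 50 to under 55% GC the medians were 1.57, 2.03 and 2.13 in the same order, and within 55 to under 60% they were 1.94, 2.34 and 2.33. The part of GC content in the difference between the classes was not tested.

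The signal value was larger in replicate 1 at 255 of the 323 (78.9%) and smaller at 68. It was larger in replicate 1 at 93.6% of open CpG-intermediate and 98.9% of open CpG-rich promoters. The median over all autosomal peaks was also larger in replicate 1, 0.828 against 0.485, so a ratio of 1 does not mark equal openness. Among the 300 whose strongest peaks overlapped, the signal value was larger in replicate 1 at 238 (79.3%) and smaller at 62, with a median ratio of 1.55. The largest ratio, that of Orc4, a subunit of the origin recognition complex, set different sites beside each other, with 1.60 in a peak centred 306 bp downstream of the 5′ end in replicate 1 and 0.340 in one centred 184 bp upstream in replicate 2. The next largest were overlapping peaks, those of Crispld1, with 0.691 in replicate 1 and 0.167 in replicate 2, Ttc34, with 2.18 and 0.542, Gm7137, with 0.752 and 0.196, and Galnt17, a glycosyltransferase, with 5.49 and 1.44. The smallest was that of Abca8a, a lipid transporter, with 0.213 in replicate 1 and 1.49 in replicate 2. It was followed by Rgs13, a regulator of G protein signalling, with 0.304 and 1.32, the interferon-inducible Samd9l with 0.342 and 1.21, the eosinophil ribonuclease Ear14 with 0.395 and 0.981, and Agmo, the ether lipid monooxygenase, with 0.342 and 0.796. Of the cell type lists, the 9 astrocyte promoters had a median ratio of 1.31, with 3 under 1, the 3 oligodendrocyte ones 2.05, with none under 1, and the 5 microglial ones 2.16, with only Cd68 under 1. The 3 excitatory and pan-neuronal ones had 0.846, with 2 under 1, and the 1 of the inhibitory list had 2.42.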

How the data were processed

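Per the labels, the tissue was a layer of hippocampus and the libraries are biological replicates 1 and 2. The labels give both the same donor ID and different biosamples, and none says whether they came from separate animals, so their spread may reflect technical error. Per the file listings, the authors derived each file from that library's own alignment to mm10, so peaks were called per library. For the aligner and callers, no name or version is given in the sources used here. Peak lists, as deposited, hold a signal per peak whose scaling is not stated, so the depth in reads is unknown, and signal was used to rank peaks within a library. The deposited FDR (q-value) files list only runs of bases with a value under 0.05. The deposited footprints all carry a score of 0.01 and could not be ranked.

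Windows ran 500 bp on either side of GENCODE M21 gene 5′ ends on autosomes, with CpG counted in the RefSeq GRCm38.p6 sequence. An overlap of 1 bp with the longer of each library's 2 peak lists counted as open, and the strongest overlapping peak gave the signal. Python 3.11.15 with numpy 2.4.6, pandas 2.3.3, scipy 1.17.1 and matplotlib 3.10.9 was used, and the overlap and CpG steps were tested on simulated data. Binomial intervals cover counting error only. The 323 promoters, the 13 marker lists and 36 symbol families were chosen with earlier results of these data known. Named genes were the 10 with the highest smaller percentile, the 5 with the most footprints, the 5 with the largest and the 5 with the smallest ratio between libraries, the 5 with the lowest CpG ratio, those beside the limit, those on cell type lists and up to 2 of a family. A few genes that this rule names are not reported here, though the counts include them. Of 14 motifs, 9 were in the design, and TTGGC with the RFX, E-box and CTCF forms, 5 in all, were added after the data were seen. A longer form of the CTCF core was also tried and is not reported here. Alternatives were other CpG limits and windows, the stricter lists, a larger overlap, windows free of other genes' 5′ ends, single libraries and overlapping strongest peaks.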

Additional observations from a re-analysis of the deposited data

How the results depend on the processing

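No paired analysis was possible because both libraries belong to 1 group. Of 97 alternative values, 70 moved by less than the spread between libraries, 1.5 times for the count of promoters, or the counting interval, and 27 by more. Peak-covered bases, the signal ratio and the TATA share moved by less in every alternative run. The order from open CpG-poor over CpG-intermediate to CpG-rich promoters, in open share, percentile, covered bases, footprints and ratio, was the same in every alternative. Keeping the 300 promoters whose strongest peaks overlapped, an alternative chosen after seeing the data, moved none of the 9 values by more. The signal ratio has no value from a single library, and the depth in reads is unknown.

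The count of 323 was 197 at a CpG limit of 0.20, 519 at 0.30 and 181 with the stricter lists, and 423 to 511 with either replicate left out. The open share of 5.56% was 4.19% at 0.20, 7.71% at 0.30, 6.47% and 6.63% with CpG windows of 500 and 2000 bp, 3.11% with the stricter lists, 4.54% with an overlap of 100 bp, 4.70% with equal numbers of peaks (an alternative chosen after seeing the data), and 7.28 to 8.79% with either replicate left out. With either replicate left out, the median percentile of 64.4 was 51.4 to 53.9, the FDR-listed share of 57.1% was 48.3 to 51.6%, the 1.06 footprints per 100 bases were 0.934 to 1.03, and the share with the 5′ end in a peak, 49.4%, was 42.9 to 44.2%. Beside these, the FDR-listed share was 50.9% with CpG windows of 500 bp, 69.2% with the stricter lists and 64.2% with an overlap of 100 bp, and footprints were 1.30 per 100 bases with the stricter lists. The share with the 5′ end in a peak was 51.7% at a limit of 0.30, 43.0% and 54.7% with CpG windows of 500 and 2000 bp, and 54.9% with an overlap of 100 bp. The cause was not tested, except that a single library admits promoters the other did not call.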

Other observations

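Single genes with roles in immunity that were on no list were among the open CpG-poor promoters. They were picked after their values were seen and show nothing about such genes as a group. The symbol families counted gave 2 open of 50 serpins (4.00%), 0 of 13 chemokine receptors and 0 of 17 Ms4a genes, beside 5.56% over all CpG-poor promoters. The complement protease genes C1ra and C1s1 had a signal of 1.75 and 0.327 in replicate 1, and 0.842 and 0.658 in replicate 2. The complement gene C4b had 0.441 in replicate 1 and 0.346 in replicate 2. The symbol family for complement held 12 CpG-poor promoters, and its 1 open one, C1qtnf5, with 4.12 and 1.94, encodes a C1q-related protein of the extracellular matrix and not a complement component. The acute-phase inhibitor Serpina3n had 0.851 in replicate 1 and 0.854 in replicate 2, the protease inhibitor Serpine2 had 1.21 and 1.15, and Tmem173, which encodes the DNA sensor STING, had 0.570 and 0.444. None of these was tested.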
